A study of Mus musculus with 6 samples.

Results

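The AP-1 and BATF transcription factor genes measured here were *Fos*, *Fosb*, *Fosl1*, *Fosl2*, *Jun*, *Junb*, *Jund*, *Batf*, *Batf3* and *Atf3*. These 10 genes were taken by symbol from the authors' deposited table, where each had 1 row, out of 21442 named genes. Together they were covered by 45 exon-level probe sets, each a group of array probes within 1 exon region, with 3 to 6 per gene. The authors' deposited table places *Fos* and *Batf* on chromosome 12, *Atf3* and *Batf3* on chromosome 1, *Junb* and *Jund* on chromosome 8, *Jun* on 4, *Fosl2* on 5, *Fosb* on 7 and *Fosl1* on 19. Values are log2 signals averaged over the probe sets of a gene.

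The cells were natural killer (NK) cells from spleens of C57BL/6 mice (the strain label reads C57BL/5). Spleen cells were depleted of T cells with a Thy1.2 antibody and complement and kept for 7 days in 1000 IU of interleukin-2. Sorting of CD3-CD122+ cells then gave 2 subsets. Ly49C/I+ samples carried Ly49C or Ly49I and lacked Ly49G2, and Ly49G2+ samples carried Ly49G2 and lacked Ly49C and Ly49I. Each subset had 3 arrays, which limits the precision of every value. All samples shared the interleukin-2 culture, so no resting cells were compared. Whether different mice or cultures stood behind the replicates is not given in the labels. The p-values therefore refer only to how these 6 samples scatter, and that scatter may be technical.

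AP-1 is a dimer of basic leucine zipper (bZIP) proteins, in which a FOS family protein pairs with a JUN family protein, or JUN proteins pair with each other. In lymphocytes several AP-1 genes, *Fos*, *Fosb* and *Jun* among them but not alone, are immediate early genes. Receptor and MAP kinase signals switch on their transcription within minutes and the mRNA is short-lived. BATF and BATF3 lack a transactivation domain, pair with JUN proteins, and bind DNA together with IRF4 or IRF8. ATF3 is a stress-induced member that binds related sites. In NK cells these factors act at genes of cytokines and activation markers.

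*Fosb*, *Fos* and *Jun* were higher in Ly49C/I+ cells, by 1.64-fold, 1.36-fold and 1.17-fold. The other 7 genes did not pass the test, and none of the 10 was called higher in Ly49G2+ cells. Calls are those of limma, a linear model with moderated variances fitted across all genes, at a Benjamini-Hochberg adjusted p under 0.05. At that threshold 9.88% of all genes were called, 6.16% toward Ly49C/I+ and 3.72% toward Ly49G2+; the 3 of 10 is to be read against these shares. At an unadjusted p under 0.05, 5 of the 10 passed, against 23.0% of all genes. The median difference of the 10 was -0.03 on the log2 scale, beside -0.01 over all genes. The members went both ways, with medians of 0.17 in the FOS family, 0.14 in the JUN family and -0.07 in the BATF and ATF genes. No FOS gene lay near its family median: *Fosb* and *Fos* were at 0.72 and 0.45, *Fosl1* and *Fosl2* at -0.10 and -0.11. No test of the 10 as a group was run.

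The sequences around the transcription starts of the 3 genes that passed are shown for the signal-response elements through which such genes are known to be switched on. Each is 300 bases, 250 before and 50 after the start, from RefSeq. Capitals mark any match, on either strand, to the cyclic AMP response element TGACGTCA, its half-site TGACG, the AP-1 site TGANTCA, the related site TGACATCA, or a CArG box, the motif bound by serum response factor.
Fos (GRCm38.p6, chr12:85473640-85473939, plus strand): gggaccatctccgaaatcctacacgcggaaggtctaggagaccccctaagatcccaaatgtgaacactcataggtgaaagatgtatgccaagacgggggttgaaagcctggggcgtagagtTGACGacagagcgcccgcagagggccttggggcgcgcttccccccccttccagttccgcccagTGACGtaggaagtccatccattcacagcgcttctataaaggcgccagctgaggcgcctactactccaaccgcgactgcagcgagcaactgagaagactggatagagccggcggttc
Fosb (GRCm38.p6, chr7:19309996-19310295, minus strand): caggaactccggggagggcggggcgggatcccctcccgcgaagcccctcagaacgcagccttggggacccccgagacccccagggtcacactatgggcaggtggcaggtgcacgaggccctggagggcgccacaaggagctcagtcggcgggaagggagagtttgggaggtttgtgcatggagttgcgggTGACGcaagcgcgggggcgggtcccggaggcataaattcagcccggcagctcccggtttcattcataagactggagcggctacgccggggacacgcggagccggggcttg
Jun (GRCm38.p6, chr4:95052173-95052472, minus strand): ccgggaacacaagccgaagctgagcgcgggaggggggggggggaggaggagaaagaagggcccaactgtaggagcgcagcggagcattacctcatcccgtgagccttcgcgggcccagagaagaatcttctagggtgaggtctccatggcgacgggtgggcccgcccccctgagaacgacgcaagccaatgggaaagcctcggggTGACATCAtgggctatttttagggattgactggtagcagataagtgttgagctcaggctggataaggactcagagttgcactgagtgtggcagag

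The *Fos* window held TGACG beginning 129 and 66 bases before the start, and the *Fosb* window held it 60 bases before the start. The *Jun* window held TGACATCA beginning 45 bases before the start. Of the 9 genes with a RefSeq promoter entry, 5 held TGACG, namely *Fos*, *Fosb*, *Junb*, *Batf* and *Atf3*. That half-site lay in 20.8% of all 32851 promoter windows of the same length, and it is also contained in TGACGTCA. *Jun* was the only one of the 9 with TGACATCA, which 3.62% of windows held. None of the 9 held TGACGTCA (1.79% of windows), TGANTCA (7.81%) or a CArG box (1.63%) in this window. Sequence further upstream was not searched, so an element lying there, such as a CArG box of *Fos*, would have been missed. These matches are descriptions of sequence, and the half-site was present both in genes that passed (*Fos*, *Fosb*) and in genes that did not (*Junb*, *Batf*, *Atf3*). *Fosl1* was without an entry.

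Among the FOS family, *Fosb* encodes a FOS paralogue that is also known for a truncated, long-lived splice form. Its log2 signals were 10.38, 10.38 and 10.27 on the Ly49C/I+ arrays and 9.67, 9.55 and 9.65 on the Ly49G2+ arrays. All Ly49C/I+ arrays lay above all Ly49G2+ arrays, with a gap of 0.596 between the nearest arrays of the subsets. Means were 10.34 ± 0.066 and 9.62 ± 0.064 (SD, n = 3), and the log2 difference was 0.72 ± 0.053 (SE, limma adjusted p = 9.1e-05). Only 0.196% of all genes differed by more, and *Fosb* was the only one of the 10 that exceeded the 1.5-fold threshold named in the study's design. Its 95% interval ran from 1.52-fold to 1.78-fold.

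*Fos* encodes the prototype of the family. Its log2 signals were 9.61, 9.71 and 9.58 on the Ly49C/I+ arrays and 9.15, 9.19 and 9.23 on the Ly49G2+ arrays. The subsets did not overlap, and the spread within each was small against the distance between them. The log2 difference was 0.45 ± 0.049 (SE, limma adjusted p = 0.00051), exceeded in size by 1.45% of all genes. The difference of *Fosb* exceeded that of *Fos* by 0.27 ± 0.054 (SE) on the log2 scale. Taken array by array, *Fosb* minus *Fos* did not overlap between the subsets. An exact two-sided permutation test of it gave p = 0.1, the smallest that 3 against 3 arrays allow, and 0.1 after adjustment over the 6 pairs compared, which were chosen after their values were seen.

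*Fosl1* (FRA-1) and *Fosl2* (FRA-2) encode FOS-related proteins that lack the strong transactivation domain of FOS. *Fosl2* had log2 signals of 10.60, 10.68 and 10.64 on the Ly49C/I+ arrays and 10.68, 10.81 and 10.78 on the Ly49G2+ arrays. The subsets met at a single pair of arrays, Ly49C/I+ replicate 2 and Ly49G2+ replicate 1, and the other Ly49G2+ arrays lay above all Ly49C/I+ arrays. Its log2 difference of -0.11 ± 0.050 (SE) did not pass (limma adjusted p = 0.207, unadjusted p = 0.046). For *Fosl1* the signals were 8.27, 8.40 and 8.25 against 8.42, 8.37 and 8.43, with Ly49C/I+ replicate 2 inside the range of the other subset. Its log2 difference was -0.10 ± 0.052 (SE, limma adjusted p = 0.295). The intervals of both were narrow: they allowed at most 1.17-fold (*Fosl2*) and 1.16-fold (*Fosl1*) toward Ly49G2+ cells. The difference of *Fos* exceeded that of *Fosl2* by 0.56 ± 0.039 (SE) on the log2 scale, again without overlap of the arrays and with an exact permutation p = 0.1.

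**Figure D1:**
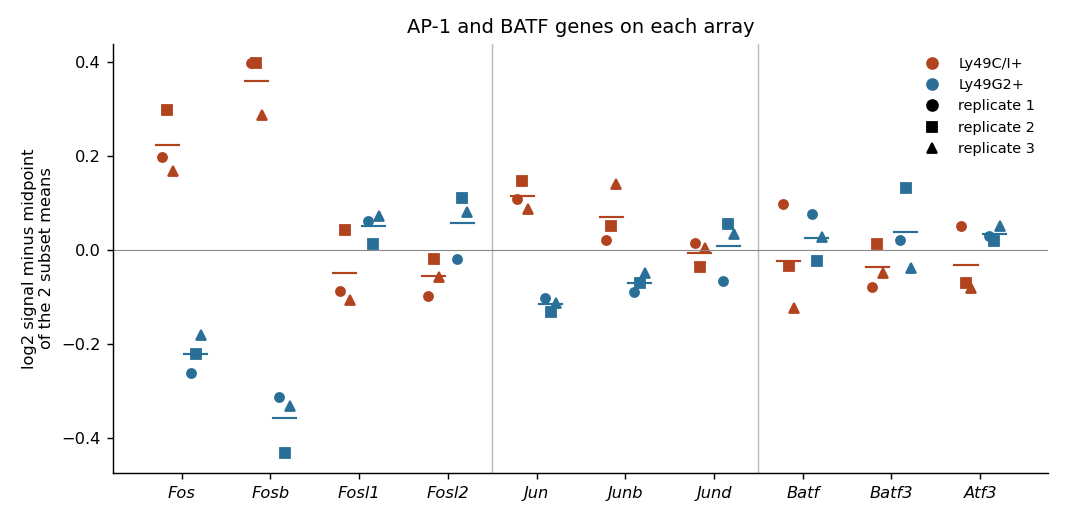
Log2 signal of each gene on each of the 6 arrays, drawn relative to the midpoint of the 2 subset means of that gene. Colours are the subsets, symbols the replicates and short lines the subset means, and vertical lines separate the FOS, JUN and BATF/ATF genes. The 3 Ly49C/I+ arrays lie above the 3 Ly49G2+ arrays for *Fos*, *Fosb*, *Jun* and *Junb*, and the arrays of the subsets overlap for the other 6 genes.

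Of the JUN family, *Jun* encodes c-JUN, the main partner of FOS and a substrate of the JNK kinases. It was measured at 11.65, 11.69 and 11.63 on the Ly49C/I+ arrays and 11.44, 11.41 and 11.43 on the Ly49G2+ arrays (log2 signal). The arrays of a subset lay within SDs of 0.030 and 0.018, and the subsets were separated by a gap of 0.188. The log2 difference was 0.23 ± 0.042 (SE, limma adjusted p = 0.0072), with an interval from 1.10-fold to 1.25-fold. With the median over its probe sets in place of their mean the log2 difference was 0.26 and the adjusted p 0.085, so that call was lost.

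*Junb* encodes a JUN protein that also partners BATF and restrains c-JUN in several settings. Its signals were 9.77, 9.80 and 9.89 on the Ly49C/I+ arrays and 9.66, 9.68 and 9.70 on the Ly49G2+ arrays. All Ly49C/I+ arrays were above all Ly49G2+ arrays, but by a gap of only 0.073. Such separation toward Ly49C/I+ was seen in 14.3% of all genes (27.8% in either direction) and in 4 of the 10 described here, with 0 of the 10 separated the other way. The log2 difference of 0.14 ± 0.046 (SE) did not pass (limma adjusted p = 0.095), although it did when the test was restricted to genes above the median signal (adjusted p = 0.043).

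*Jund*, the JUN gene known for steady rather than induced expression, showed log2 signals of 10.97, 10.92 and 10.96 against 10.89, 11.01 and 10.99. The arrays of the subsets were intermixed. The log2 difference was -0.01 ± 0.048 (SE, limma adjusted p = 0.905), and its interval, from 0.920-fold to 1.07-fold, left out the estimates for *Fosb*, *Fos*, *Jun* and *Junb*. The difference of *Jun* exceeded that of *Jund* by 0.24 ± 0.056 (SE) on the log2 scale, with no overlap of the arrays and an exact permutation p = 0.1.

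**Figure D2:**
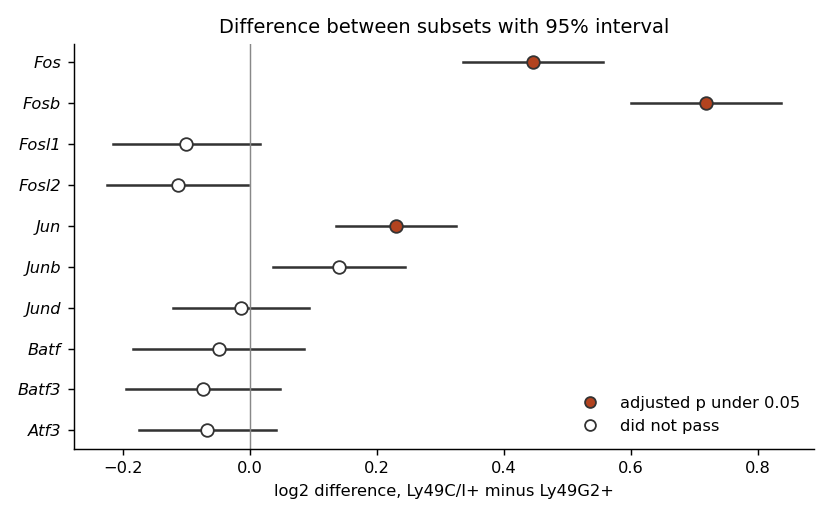
Log2 difference of each gene, Ly49C/I+ minus Ly49G2+, with the 95% interval of the limma fit (n = 3 arrays per subset). Filled points passed at an adjusted p under 0.05. The values fall from 0.72 for *Fosb* and 0.45 for *Fos* to 0.23 for *Jun*, and the 7 genes that did not pass lie between -0.11 and 0.14.

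None of the BATF and ATF genes passed the test, and in each the arrays of the subsets overlapped. *Batf* had log2 signals of 9.43, 9.30 and 9.21 on the Ly49C/I+ arrays and 9.41, 9.31 and 9.36 on the Ly49G2+ arrays. The Ly49C/I+ arrays enclosed the Ly49G2+ arrays, and their SD of 0.109 was the widest among the 10 genes in either subset. *Batf3*, known as the factor of cross-presenting dendritic cells and expressed in activated lymphocytes, was at 7.44, 7.53 and 7.47 against 7.54, 7.65 and 7.48. *Atf3* was at 10.59, 10.47 and 10.46 against 10.57, 10.56 and 10.59, with Ly49C/I+ replicate 1 level with the Ly49G2+ arrays. The log2 differences were -0.05 ± 0.060, -0.07 ± 0.054 and -0.07 ± 0.048 (SE) in that order, with limma adjusted p of 0.700, 0.475 and 0.465. The 95% intervals allowed at most 1.14-fold (*Batf*), 1.15-fold (*Batf3*) and 1.13-fold (*Atf3*) toward Ly49G2+ cells, and at most 1.06-fold, 1.03-fold and 1.03-fold toward Ly49C/I+ cells.

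The exon-level probe sets showed whether a gene's average rested on a few of them. For the 3 genes that passed, all 15 probe sets were higher on every Ly49C/I+ array than on any Ly49G2+ array, 5 of 5 for *Fosb*, 4 of 4 for *Fos* and 6 of 6 for *Jun*. Of all 227645 probe sets of named genes, 9.9% separated in that direction and 8.7% in the other. Probe sets of 1 gene share its transcripts and are not replicates. The sizes still varied within a gene. They ran from 0.55 to 1.04 on the log2 scale for *Fosb*, with the largest at the second probe set in order of ID (8.83, 8.85 and 8.38 against 7.65, 7.57 and 7.73). They ran from 0.31 to 0.61 for *Fos* and from 0.12 to 0.34 for *Jun*. The probe sets were not assigned to exons here, so splice forms of *Fosb* were not told apart.

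Among the 7 genes that did not pass, 3 of 30 probe sets separated toward Ly49C/I+ and 5 toward Ly49G2+. *Junb* accounted for 2 of the first kind, with differences of 0.26 and 0.12, while its other probe set differed by 0.04 and overlapped. *Fosl1* and *Fosl2* had 2 each of the second kind, of -0.24 and -0.20 for *Fosl1* and -0.11 and -0.15 for *Fosl2*. All 4 probe sets of *Fosl2* had a higher mean in Ly49G2+ cells. In *Atf3* the probe sets disagreed. The last in order of ID read 7.30, 7.03 and 7.22 on the Ly49C/I+ arrays and 7.58, 7.52 and 7.51 on the Ly49G2+ arrays, a difference of -0.35, and the other 5 lay between -0.08 and 0.05. The averaged difference of *Atf3* thus came mostly from 1 probe set.

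**Figure D3:**
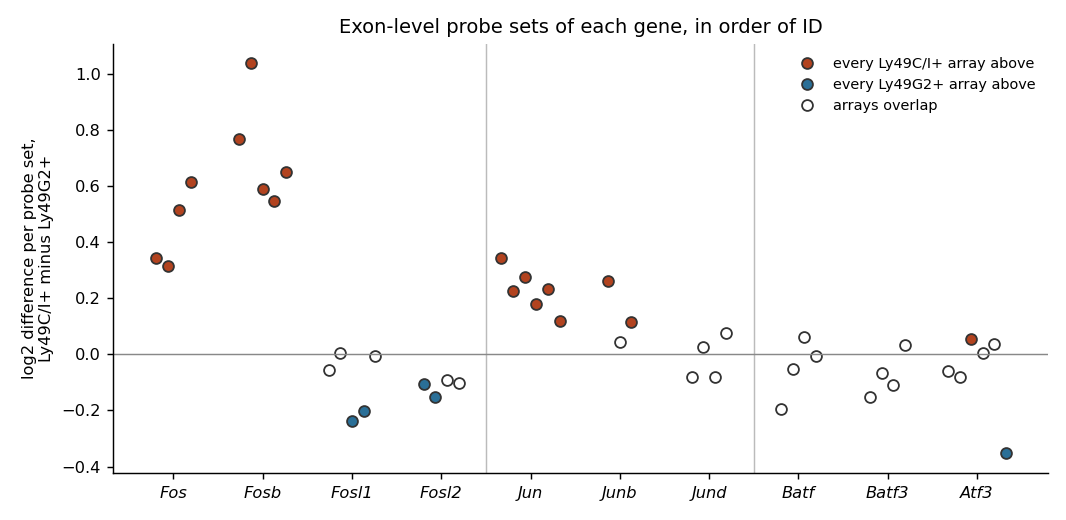
Log2 difference of every exon-level probe set, Ly49C/I+ minus Ly49G2+, in order of ID within each gene. Filled points are probe sets whose arrays do not overlap between the subsets. All points of *Fos*, *Fosb* and *Jun* are filled and above 0, from 0.12 to 1.04, and most points of the BATF and ATF genes are open.

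The authors' deposited table, which summarises each transcript cluster separately, gave the same 3 genes. In the authors' deposited table the ratio of Ly49C/I+ to Ly49G2+ was 1.60 for *Fosb*, 1.39 for *Fos* and 1.16 for *Jun*. The authors' deposited table also holds p-values, which after Benjamini-Hochberg adjustment over all genes here were 0.0138, 0.0141 and 0.0158, and 5.15% of genes passed. In the authors' deposited table *Junb* had a ratio of 1.06 and *Fosl2* of 0.925, and neither passed after adjustment (0.245 and 0.189). The authors' deposited ratio of *Atf3* was 0.990.

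*Fosb* and *Fos* passed in all 17 alternative analyses, with log2 differences from 0.59 to 0.76 and from 0.41 to 0.56. *Jun* passed in 16 of 17. With each array left out in turn, the same 3 genes and no others were called. That held without Ly49G2+ replicate 1, which has the title of its own subset but a source label of Ly49C/I+, and without Ly49G2+ replicate 2.

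**Figure D4:**
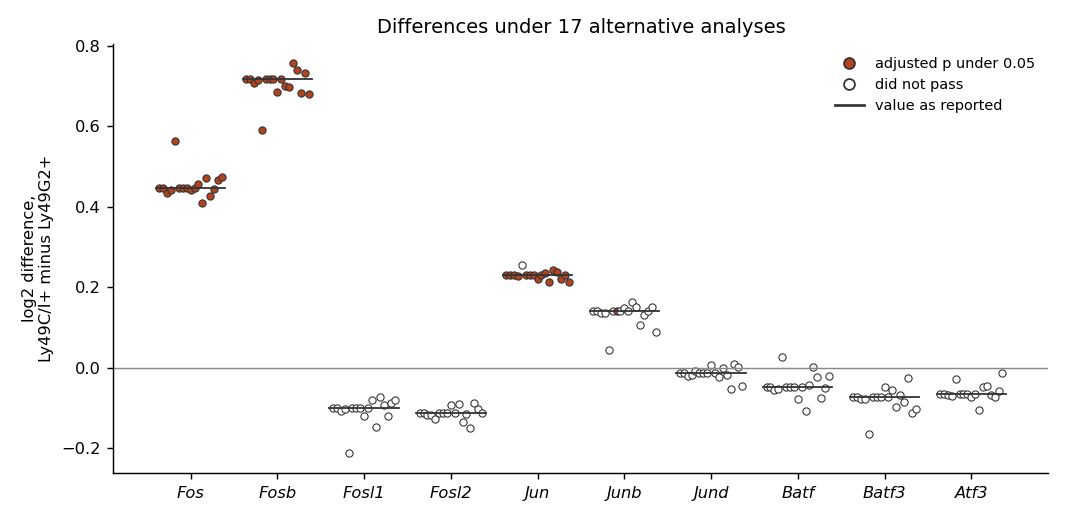
Log2 difference of each gene, Ly49C/I+ minus Ly49G2+, under the 17 alternative analyses (points, filled where the adjusted p is under 0.05), with a line at the value reported. *Fosb* and *Fos* stay filled throughout, *Jun* has 1 open point, *Junb* has 1 filled point, and the points of *Jund* and *Batf* fall on both sides of 0.

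Genes whose signal followed that of *Fos* and *Fosb* most closely were taken by Pearson correlation over the 6 arrays among 10720 other genes above the median signal. With 2 subsets and 6 points, very high values occur by the subset difference alone, so these are descriptions. Nearest to *Fos* were *Nr4a2*, a nuclear receptor and immediate early gene (r = 0.999), *Tsc22d1*, *Hnrnpu*, *Plk1*, a mitotic kinase, and *Unkl* (r = 0.996). The log2 difference of *Nr4a2* was 0.16, its call failed in 9 of 17 alternatives, and *Hnrnpu* did not pass. Of the other NR4A genes, *Nr4a3* passed toward Ly49G2+ (-0.17, failing in 8 of 17) and *Nr4a1* did not pass (0.10). Nearest to *Fosb* were *Pnn*, *Cxcr6*, a chemokine receptor, *Brpf1*, *Clta*, the clathrin light chain, and *Slc29a1*, a nucleoside transporter, with r from 0.998 to 0.999. *Fos* and *Fosb* themselves correlated at r = 0.981.

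Other genes of the pathway were described from lists, with no test of any list as a group. Their counts are to be read against all genes, of which 6.16% passed toward Ly49C/I+ and 3.72% toward Ly49G2+. Of 31 other bZIP factors that pair or compete with AP-1 proteins, 1 passed toward Ly49C/I+ and 6 toward Ly49G2+, and the median log2 difference was -0.06. *Creb3*, a membrane-bound factor, was 1.23-fold higher in Ly49C/I+ cells. *Ddit3* (CHOP, 1.18-fold), *Atf5* (1.17-fold), *Jdp2*, which binds JUN and represses AP-1 (1.15-fold), and *Cebpg* (1.15-fold) were higher in Ly49G2+ cells. *Nfil3* (1.18-fold), needed for NK development, and *Bach2* (1.12-fold), a repressor at AP-1 sites, completed the 6 and are named after their values were seen. The 6 became 1, 3 and 0 without Ly49C/I+ replicates 1, 2 and 3, and 2 and 1 without Ly49G2+ replicates 1 and 3. With the median over probe sets none of the 31 passed.

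Of 11 genes listed as IRF, NFAT and other partners of AP-1 and BATF, 2 passed toward each subset. *Irf4*, the usual partner of BATF, read 8.51, 8.59 and 8.47 on the Ly49C/I+ arrays and 9.01, 8.95 and 9.06 on the Ly49G2+ arrays. All Ly49G2+ arrays lay above all Ly49C/I+ arrays, opposite to *Fos* and *Fosb*. The log2 difference of *Irf4* was -0.48 ± 0.050 (SE, limma adjusted p = 0.00038), and it passed in all 17 alternatives. *Irf8*, the other IRF that pairs with BATF proteins, differed by 1.17-fold toward Ly49G2+, and with the median over probe sets it did not pass (adjusted p = 0.066). *Runx1* (1.22-fold) and *Ets2* (1.19-fold) passed toward Ly49C/I+, and both calls were lost without variance moderation. *Ets2* failed in 7 of 17 alternatives, among them those without Ly49C/I+ replicate 2, Ly49C/I+ replicate 3 or Ly49G2+ replicate 1 and the median over probe sets (adjusted p = 0.098), and *Runx1* failed in 1. No NFAT gene of the list passed. *Nfatc1*, which joins FOS and JUN at cytokine promoters, had a log2 difference of 0.10 (limma adjusted p = 0.209). *Nfatc2* (-0.12), *Nfatc3* (-0.09) and *Nfat5* (-0.04) differed in the other direction.

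Upstream of AP-1, 3 of 38 MAP kinase and serum response genes passed toward Ly49C/I+ and 3 toward Ly49G2+, with a median log2 difference of -0.03. *Mapk8* encodes JNK1, a kinase of c-JUN. It was 1.34-fold higher in Ly49C/I+ cells, at 8.65, 8.60 and 8.61 against 8.30, 8.06 and 8.23 (limma adjusted p = 0.0020, 0.070 with the median over probe sets). *Map2k7*, an activator of JNK named after its value was seen, was 1.13-fold higher there, and *Map3k8* (TPL2) 1.17-fold. The p38 kinase genes *Mapk11* (1.34-fold) and *Mapk12* (1.30-fold) and the transcription factor gene *Mef2c* (1.18-fold) were higher in Ly49G2+ cells. *Map2k7* failed in 9 of 17 alternatives, *Mef2c* in 6, *Map3k8* in 5, *Mapk8* and *Mapk12* in 2 each, and *Mapk11* in 0. Without Ly49C/I+ replicate 1, only 1 passed toward Ly49C/I+. The factors that act at the *Fos* serum response element did not pass: *Srf* had a log2 difference of -0.10 and *Elk1* of 0.01.

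Of 34 genes with known AP-1 or BATF sites in lymphocytes or fibroblasts, 4 passed toward each subset, and the median log2 difference was -0.01. With the median over probe sets only *Ccl5* passed, and without variance moderation 3 passed toward Ly49C/I+ and 1 toward Ly49G2+. The chemokine genes *Ccl4*, *Ccl5* and *Ccl3* and the phosphatase gene *Dusp1* were the 4 in Ly49C/I+ cells (1.38-fold, 1.32-fold, 1.13-fold and 1.23-fold). *Hmox1*, encoding heme oxygenase, *Csf2*, encoding GM-CSF, *Areg*, a growth factor gene, and *Ier3* were the 4 in Ly49G2+ cells (1.33-fold, 1.24-fold, 1.19-fold and 1.27-fold). *Ccl3*, *Areg* and *Ier3* are named after their values were seen and failed in 10, 6 and 11 of 17 alternatives. Under that same median summary *Ccl4* differed by 0.20 in place of 0.47 on the log2 scale (adjusted p = 0.116) and *Hmox1* by -0.235 in place of -0.41 (0.126), while *Csf2* (0.094) and *Dusp1* (0.0505) also missed the threshold. Toward Ly49G2+, 2 passed without Ly49C/I+ replicate 3.

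Of 34 immediate early genes other than the AP-1 members, 8 passed toward Ly49C/I+ and 3 toward Ly49G2+, and the median log2 difference was 0.06. This list shares *Dusp1*, *Ier3* and *Cd69* with the list of genes with AP-1 or BATF sites, so the calls of *Dusp1* and *Ier3* are counted in both. *Rgs2*, *Tnfaip3*, *Myc* and *Dusp1* were among the 8, by 1.23-fold to 1.29-fold, and *Rgs16* (1.31-fold) was among the 3. *Egr1*, which is often switched on together with *Fos* through serum response elements, overlapped between the subsets, at 10.39, 10.36 and 10.40 against 10.42, 10.45 and 10.38. Its log2 difference was -0.03 (limma adjusted p = 0.729). With the median over probe sets 2 and 1 passed. The 3 became 1 without Ly49C/I+ replicate 3, Ly49G2+ replicate 1 or Ly49G2+ replicate 3. Heat shock genes can rise when cells are handled. Toward Ly49C/I+, 0 of the 13 measured passed in limma, and 1 passed toward Ly49G2+, *Bag3* (1.38-fold). At an unadjusted p under 0.05, 1 of the 13 passed in all, against 23.0% of all genes. Whether cell handling contributed to any difference was not tested.

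**Figure D5:**
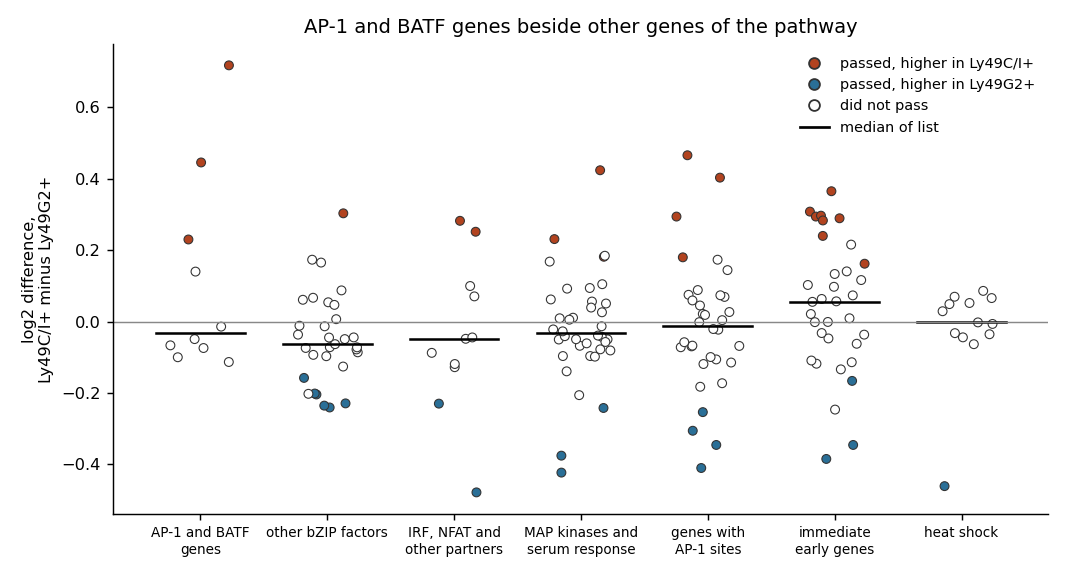
Log2 difference of each gene, Ly49C/I+ minus Ly49G2+, for the AP-1 and BATF genes and 6 lists of other genes (points, filled where the adjusted p is under 0.05), with a line at each list's median. Medians lie between -0.06 and 0.06, and *Fosb* at 0.72 is the highest point of all the lists.

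Markers of NK cells were high on all arrays, with a mean log2 signal over 12 genes of 11.74 to 11.80 on Ly49C/I+ and 11.70 to 11.73 on Ly49G2+ arrays, and 1 of them, *Klrk1*, passed toward Ly49C/I+ but failed in 9 of 17 alternatives. Some T cell markers differed between the subsets. Of 15 measured, 4 (*Cd3e*, *Cd3d*, *Cd3g* and *Cd8a*) passed toward Ly49G2+ and 0 toward Ly49C/I+, and the other 11 did not pass. The log2 differences of the 4 were -2.23, -1.77, -0.99 and -0.72 in that order, and none of them failed in any alternative. Those of *Cd3e*, *Cd3d* and *Cd3g* were larger in size than that of *Fosb* (0.72). The median log2 difference of the 15 was -0.06. Every Ly49C/I+ array lay above every Ly49G2+ array for 3 of the 15, and the reverse held for 5. The mean log2 signal of the list was 7.88 to 7.97 on Ly49C/I+ and 8.28 to 8.30 on Ly49G2+ arrays. Of 9 neutrophil and mast cell genes, 4 passed toward Ly49G2+ (*Ctsg*, *Kit*, *Ly6g* and *Mcpt8*) and 1 toward Ly49C/I+ (*Cpa3*), and 3 of the 9 lay below the lower quartile of probe sets (5.84). *Ly6g* was among these 3, with means of 5.20 and 5.44. *Ctsg* (log2 difference -0.99) passed in all 17 alternatives, and *Cpa3* (0.60) failed in 1 of 16. *Mcpt8* failed in 10 of 17, *Ly6g* in 8 of 14 and *Kit* in 6 of 17. The other 4 of that list, *S100a8*, *S100a9*, *Elane* and *Mpo*, did not pass. Their log2 differences lay between -0.02 and 0.04, with overlapping arrays. The mean of that list was 7.13 to 7.15 on Ly49C/I+ and 7.23 to 7.27 on Ly49G2+ arrays. B cell markers (0 of 10 passed, 5 below the lower quartile), macrophage markers (1 of 11, *Cd14*, toward Ly49G2+, failing in 8 of 16 alternatives) and dendritic cell markers (1 of 9, *Itgax*, toward Ly49C/I+) differed in their mean log2 signal by -0.01, -0.02 and 0.02 between the subsets. *Itgax* alone had a log2 difference of 0.49 and passed in all 17 alternatives. The dendritic cell list includes *Batf3*, 1 of the 10 genes described here. The part of T cell or granulocyte RNA in the AP-1 values was not tested. In such bulk samples, fewer cells of a type and less RNA per cell cannot be told apart.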

How the data were processed

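RNA of 6 sorted samples was measured on an Affymetrix array. Partek and RMA (background correction, quantile normalization and probe summary) are named in the submitters' processing notes, with versions and settings not given in the sources used here. The authors deposited log2 values of 241576 exon-level probe sets. Their table of transcript clusters holds, per the file headers, a mean log2 value per subset, an ANOVA p-value, a linear ratio with its signed fold form, and F values and sums of squares as a score of the fit.

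Probe sets were joined to clusters by the unbroken run of ID numbers after each cluster ID (241383 placed, 193 left out) and averaged per cluster and gene. Across clusters, which are not independent replicates, subset differences after the join correlated with the deposited ones at r = 0.977. Array medians were 7.74 to 7.76. Symbols were updated through RefSeq (GRCm38.p6). The files name no genome build.

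Differences are Ly49C/I+ minus Ly49G2+, from limma 3.58.1 (R 4.3.3; lmFit, eBayes, no filter, two-sided), adjusted by Benjamini-Hochberg over all genes and tested on simulated data. Subsets came from the sample titles. The 10 genes, the lists and the tests were chosen with earlier results of these data known. Named genes are the 10, up to 5 passing genes of lowest p per list, the 5 most correlated with *Fos* and with *Fosb*, and passing markers. Further passing genes (*Nfil3*, *Bach2*, *Map2k7*, *Ccl3*, *Areg*, *Ier3*, *Nr4a3*) and a few that did not pass were named after their values were seen. Same-numbered arrays did not deviate together (r = -0.134, -0.199 and -0.0376), so numbers were not used as pairs. Alternatives were other moderation, normalization, probe summary, signal filters, array weights, a replicate block, each array left out, and the authors' deposited values.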

Additional observations from a re-analysis of the deposited data

How the results depend on the processing

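The calls of *Fos* and *Fosb* held in all 17 alternative analyses. Of the 10 AP-1 and BATF genes, 3 were higher in Ly49C/I+ cells in most alternatives, 2 with the median over probe sets (without *Jun*, adjusted p = 0.0853) and 4 with the filter at the median signal (with *Junb*, log2 difference 0.14, adjusted p = 0.0430). None was called in Ly49G2+ cells under any alternative, and the count was 3 and 0 with each array left out. *Jund*, which did not pass, turned to 0.0062 with array weights and to 0.0092 and 0.00042 without Ly49G2+ replicates 2 and 3. *Batf*, which did not pass either, turned to 0.027 with the median over probe sets and to 0.0017 without Ly49C/I+ replicate 3. With each array left out, the log2 difference of *Jund* ran from -0.052 to 0.0092 and that of *Batf* from -0.107 to 0.0017. The cause was not tested.

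Over all genes, those higher in Ly49C/I+ cells numbered 554 without variance moderation, 460 with the median over probe sets and 671 with the authors' deposited p-values, against 1321. Those higher in Ly49G2+ cells numbered 344, 219 and 433 in the same settings and 495 with the replicate block, against 797. With the replicate block, *Fos*, *Fosb* and *Jun* passed (adjusted p = 0.0033, 0.0010 and 0.0314), and the block changed no other call among the 10. With each array left out the all-gene counts ran from 859 to 1112 and from 410 to 765, with fewer arrays in each fit. Several call counts of the pathway lists fell in some settings. Without variance moderation the other bZIP factors had 0 toward Ly49C/I+ and 1 toward Ly49G2+ (against 1 and 6). The MAP kinase list had 0 and 1 (against 3 and 3) and the immediate early genes 5 and 1 (against 8 and 3). With the replicate block the bZIP factors had 1 and 1. Single list genes, such as *Irf4*, *Mapk11*, *Rgs2*, *Rgs16*, *Tnfaip3* and *Ccl5*, passed in all 17 alternatives, as *Fos* and *Fosb* did. Precision is limited by the 3 arrays per subset.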
